A study of Arabidopsis thaliana with 8 samples.

Results

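AT1G27550 and AT1G27560 are neighbouring loci on chromosome 1 of Arabidopsis thaliana, and the cytosines listed as differentially methylated between them and within them are mapped here. The interval ran from 9568813 to 9571987 (3175 bp, TAIR10 coordinates counted from 1), with 5 kb on each side as contrast. It held 139 of the 70564 differentially methylated cytosines (DMCs) that 6 lists placed on the nuclear chromosomes, at 98 of 58128 distinct positions. The loci were chosen because of measured values, namely the number of positions that came back in every CVL125 list, so these values and the other CVL125 counts at the locus are a description without a test.

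The study set plants before selection against plants after it in CVL39 and CVL125, which are 2 recombinant inbred lines from a cross of the accessions Ler and Cvi. Selected plants descended from populations kept for 5 generations of selection in a dynamic landscape (replicate landscapes 1, 5 and 6) and were then grown for 2 generations without selection, whereas ancestral plants had not been selected. In the paper's design, plants of both origins were grown side by side in a controlled environment after selection. The sample labels give no number of such generations for the ancestral pools. Each of the 8 samples was DNA pooled from the above-ground tissue of 4 plants, 25 days old, that was bisulfite-converted and sequenced on the SOLiD platform. Every list set 1 selected pool against the ancestral pool of its line and gave cytosines with an unadjusted p-value of at most 0.05. Because 1 ancestral pool stands behind all 3 lists of its line, a change in the selected plants and a deviation of that pool cannot be told apart, and listing in all 3 is not 3 independent observations. The lists give neither read counts nor methylation levels nor the direction of a change, so depth per cytosine is unknown and "listed" means only that a difference was called. The paper describes its SOLiD data as a low-coverage pilot. Its own reported DMCs come from separate Illumina sequencing of individual plants and are not the calls mapped here. They held from 7297 to 14074 nuclear DMCs, and the shortest was that of CVL125 landscape 6.

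In plants, methylation is maintained at CG by MET1, at CHG largely by CMT3, and at CHH by DRM2 of the RNA-directed pathway and by CMT2 (H stands for A, C or T). Gene bodies of active genes often carry CG methylation alone, whereas silenced repeats and pseudogenes tend to carry all contexts. F-box proteins are the substrate-recognition subunits of SCF ubiquitin ligases and form one of the largest and most variable gene families in plants, in which many copies have decayed into pseudogenes.

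AT1G27550 (9568813 to 9569330, minus strand) is annotated as a protein-coding F-box gene with a first exon at 9569186 to 9569330, an intron at 9569046 to 9569185 and a second exon at 9568813 to 9569045. AT1G27560 (9570855 to 9571987, minus strand) is annotated as a transcribed pseudogene of an F-box protein with the domain DUF295. AT1G27555 (9570397 to 9570962, plus strand), encoding an uncharacterized protein, lies in the 1524 bp between them and overlaps the end of AT1G27560. The interval has 204 CG, 174 CHG and 863 CHH cytosines on both strands and a GC content of 39.1%, against 36.0% for the nuclear genome.

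The sequences below, read from TAIR10 on the strand that was listed, show where listing returned in all 3 landscapes of a line. In the first, from the second exon of AT1G27550, capitals mark all 9 cytosines listed in any CVL125 landscape, among them the 3 neighbours that every CVL125 list held. The 4 from AT1G27560 carry 1 recurrent cytosine each, in capitals. In the last, from between the genes, capitals mark the 5 plus-strand cytosines listed in CVL39, of which the first was in all 3 of its lists.
AT1G27550 second exon, chr1:9568853-9568931, minus strand: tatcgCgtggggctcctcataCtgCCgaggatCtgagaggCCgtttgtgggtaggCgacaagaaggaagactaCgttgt
AT1G27560, chr1:9571216-9571236, plus strand, CHG: gctcttgtaaCagcaatgcct
AT1G27560, chr1:9571348-9571368, plus strand, CHG: tcatcttgtcCagacaaatcc
AT1G27560, chr1:9571379-9571399, minus strand, CHG: tctttgccacCcgtgagttca
AT1G27560, chr1:9571956-9571976, plus strand, CHH: ttagcagactCaagcgtagta
Between the genes, chr1:9570218-9570267, plus strand: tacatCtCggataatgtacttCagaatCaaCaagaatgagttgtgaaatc

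Listed cytosines were dense across the interval in both lines. The CVL39 lists held 25, 17 and 23 DMCs there (landscapes 1, 5 and 6), a mean of 21.7 ± 4.16 (SD, n = 3). The CVL125 lists held 27, 27 and 20, a mean of 24.7 ± 4.04 (SD, n = 3). The ranges of the lines overlapped. As a share of the interval's cytosines these were 2.01%, 1.37% and 1.85% in CVL39, where 0.0263%, 0.0294% and 0.0297% of all nuclear cytosines were listed. In CVL125 they were 2.18%, 2.18% and 1.61%, against 0.0293%, 0.0328% and 0.017% of all nuclear cytosines. The interval thus exceeded the rest of the genome 46.6-fold to 76.8-fold in CVL39 and 66.4-fold to 94.9-fold in CVL125. All shares are of cytosines in the reference, because the number that had enough reads to be called is not known.

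CVL39 recurrence had no part in choosing the interval, so its density was the 1 value of the locus put to a test. Its log2 density over that of the genome was 6.29, 5.58 and 5.99 in landscapes 1, 5 and 6 (mean 5.95 ± 0.35 SD). All 3 values were far above 0, and a two-sided exact sign-change test over the 3 lists gave p = 0.25, the smallest that 3 lists allow. When the nuclear chromosomes were divided into 37524 windows as long as the locus, the median window held 0 DMCs in every list. Windows with at least as many DMCs as the locus numbered 0, 9 and 1 for CVL39 and 6, 5 and 2 for CVL125. Few windows thus held as many DMCs as the locus. The windows did not follow the borders of the locus and can split a group of DMCs, whereas the locus was bounded by its genes. For CVL125 the counts include the positions that chose the locus, so there the comparison is only a description.

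**Figure D1:**
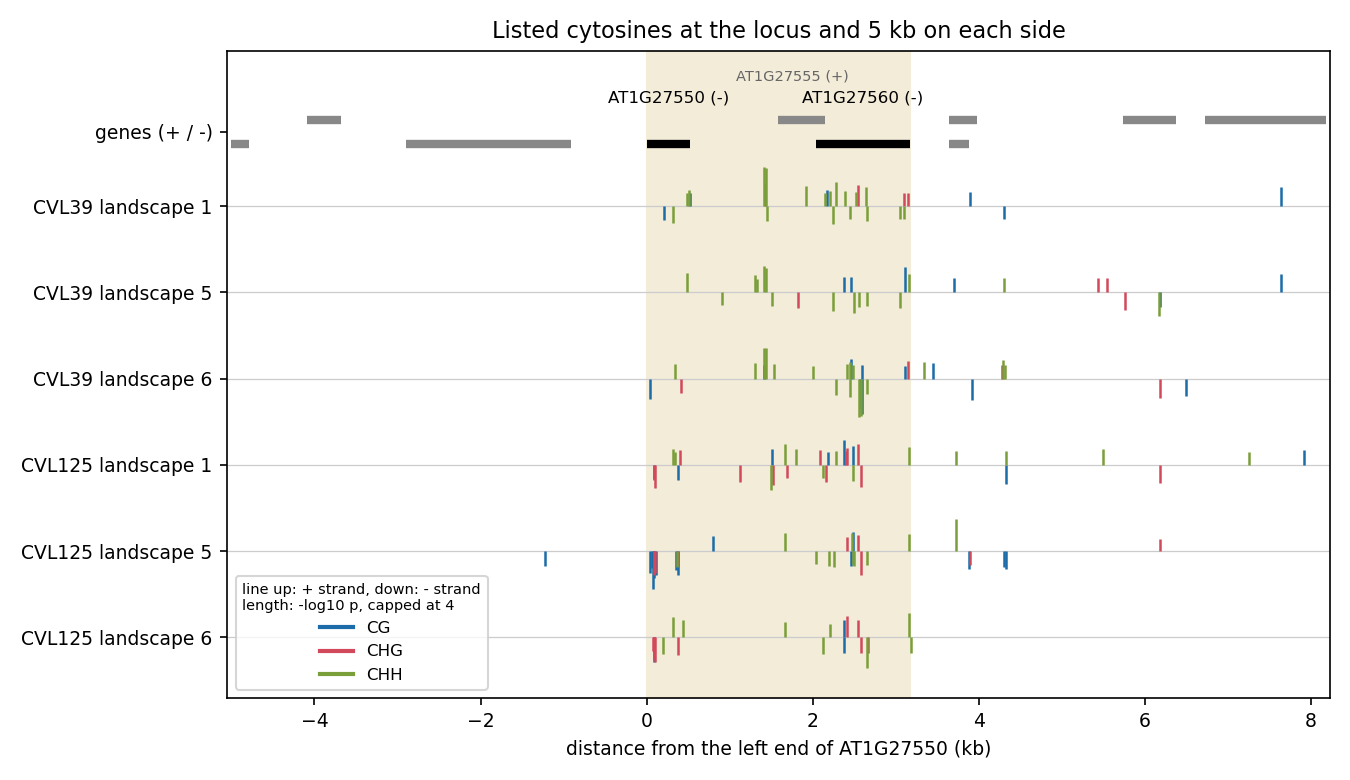
Listed cytosines along AT1G27550, AT1G27560 (shaded) and 5 kb on each side, 1 row per list, against distance in kb from the left end of AT1G27550. Vertical lines point up for the plus and down for the minus strand, their length is −log10 of the deposited p-value (capped at 4) and their colour the context; grey and black bars are genes, and the flank left of AT1G27550 held 1 DMC over all 6 lists.

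The density ended at the left border of the locus and declined past the right one. The left 5 kb held 0 DMCs in each CVL39 list and 0, 1 and 0 in CVL125, although it has 236 CG, 181 CHG and 1222 CHH cytosines. The right 5 kb held 3, 8 and 8 DMCs in CVL39 and 7, 6 and 1 in CVL125. As a share of its cytosines these were 0.175%, 0.467% and 0.467% in CVL39 and 0.409%, 0.35% and 0.058% in CVL125. Each was below the share at the locus but above that of all nuclear cytosines in the same list, for CVL125 landscape 6 by 1 DMC only. Of the 34 flanking DMCs, 1 lay on the left and all others on the side of AT1G27560. Over both flanks the lines had 6.33 ± 2.89 and 5.00 ± 3.46 DMCs per list (SD, n = 3 each), a difference of 1.33 that the spread covers (two-sided exact permutation test, p = 0.5; the smallest possible p is 0.1). Without landscape 6 that difference turned to −1.5. No flanking position was in all 3 lists of either line, and 1 in CVL39 and 2 in CVL125 were in 2 of them.

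The annotated neighbours followed this asymmetry. AT1G27530 and AT1G27535, the farthest on the left, had no listed cytosine in any list. AT1G27540, another F-box gene with DUF295 and the nearest gene on the left, had 1 in CVL125 landscape 5 and none in the other lists. On the right, the overlapping long non-coding RNAs AT1G06093 and AT1G06097 had from 0 to 3 DMCs per list. AT1G27565 had 0, 3 and 1 in CVL39 and 1, 1 and 0 in CVL125. AT1G27570, which reaches beyond the flank, had 9, 3 and 6 over its whole length in CVL39 and 4, 3 and 2 in CVL125.

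AT1G27550 had more DMCs in CVL125 than in CVL39. Its body had 4, 1 and 3 DMCs in the CVL39 lists and 7, 12 and 9 in those of CVL125. Per kb these are 5.15 ± 2.95 and 18.02 ± 4.862 (SD, n = 3 each). The counts of the lines did not overlap, but the gene was chosen for its CVL125 listing, so no test was made. Without its 3 recurrent positions the CVL125 counts were 4, 9 and 6 and met the CVL39 range at 4. Most of the gap came from the second exon, with 1, 0 and 1 DMCs in CVL39 and 3, 8 and 6 in CVL125, or 0, 5 and 3 without the recurrent positions. The intron had 1, 0 and 1 in CVL39 and 2, 2 and 1 in CVL125. The first exon had 2, 1 and 1 in CVL39 and 2 in each CVL125 list.

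AT1G27560 was listed to a like extent in both lines, with 15, 9 and 14 DMCs in CVL39 and 13, 12 and 10 in CVL125. Its density was 11.2 ± 2.84 per kb in CVL39 and 10.3 ± 1.35 per kb in CVL125 (SD, n = 3 each), so the ranges overlapped. The stretch between the genes had 6, 7 and 6 DMCs in CVL39 and 7, 3 and 1 in CVL125. There landscape 1 of CVL125 lay within 1 DMC of the CVL39 lists and its landscape 6 far below them. AT1G27555, which takes up part of that stretch and overlaps AT1G27560, had 2, 1 and 1 DMCs in CVL39 and 5, 2 and 2 in CVL125.

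**Figure D2:**
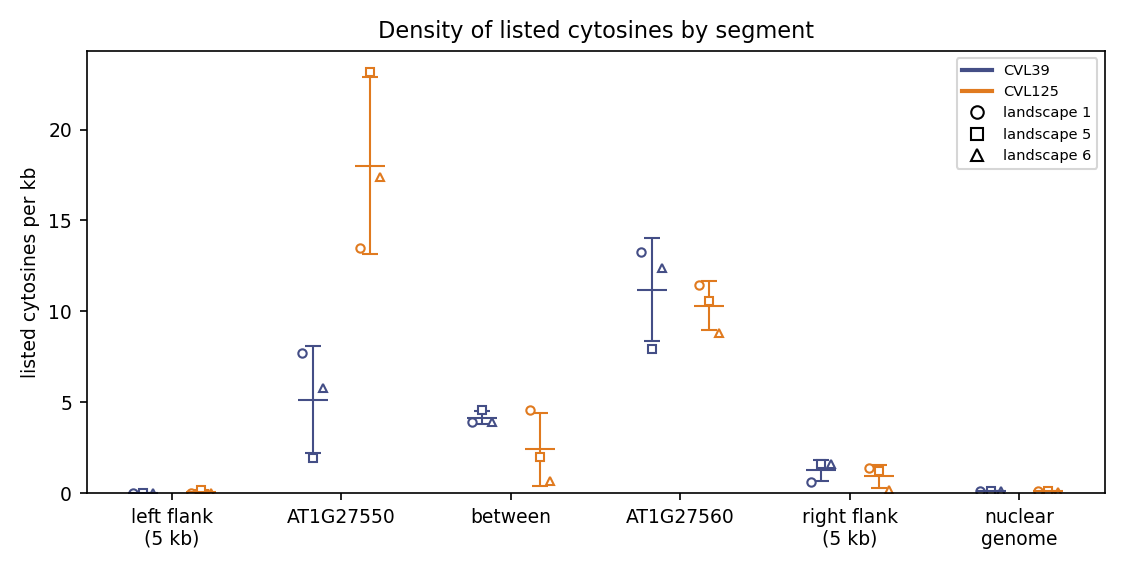
Listed cytosines per kb in the flanks, AT1G27550, the stretch between the genes, AT1G27560 and the nuclear genome for CVL39 and CVL125. Symbols are landscapes, and horizontal marks with bars are means ± SD over 3 lists; AT1G27550 of CVL125 is highest with 18.02 per kb, and the genome lies near 0.1 per kb.

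The contexts of the locus DMCs are also a description, since 5 of the 7 recurrent CVL125 positions that chose the locus are CHG. CHG cytosines made up 16.0%, 5.88% and 8.70% of the locus DMCs in CVL39 (4, 1 and 2 DMCs) and 44.4%, 25.9% and 45% in CVL125 (12, 7 and 9 DMCs). CHH cytosines made up 72.0%, 76.5% and 60.9% in CVL39 (18, 13 and 14 DMCs) and 33.3%, 37.0% and 40% in CVL125 (9, 10 and 8 DMCs). In both contexts the lists of the lines did not overlap, which for CHG rested on those 7 positions. With them left out of both lines, an alternative added after seeing the data, CHG shares were 12.5%, 6.25% and 8.70% in CVL39 and 35%, 10% and 30.8% in CVL125, so that CVL125 landscape 5 fell within the CVL39 range. CHH shares were then 75.0%, 75.0% and 60.9% in CVL39 and 40%, 45% and 53.8% in CVL125 and still did not overlap. CG counts, at 3, 3 and 7 in CVL39 and 6, 10 and 3 in CVL125, did overlap.

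Over the nuclear genome CHG took 20.1% ± 0.79 of the CVL39 and 18.2% ± 4.22 of the CVL125 DMCs (SD, n = 3 each), and CHH 34.4% ± 1.25 and 39.1% ± 1.56. CG took 45.5% ± 1.59 and 42.7% ± 5.27 genome-wide, but only 20.0% ± 9.43 and 24.7% ± 11.2 at the locus. The excess of the locus over the rest of the genome was smallest in CG in all lists but that of CVL39 landscape 6, where CHG was lower. For CG it was 14-fold to 32.3-fold in CVL39 and 30.2-fold to 40.7-fold in CVL125. For CHG it was 14.5-fold to 60.3-fold in CVL39 and 117-fold to 202-fold in CVL125. For CHH it was 109-fold to 163-fold in CVL39 and 64.7-fold to 99.6-fold in CVL125.

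**Figure D3:**
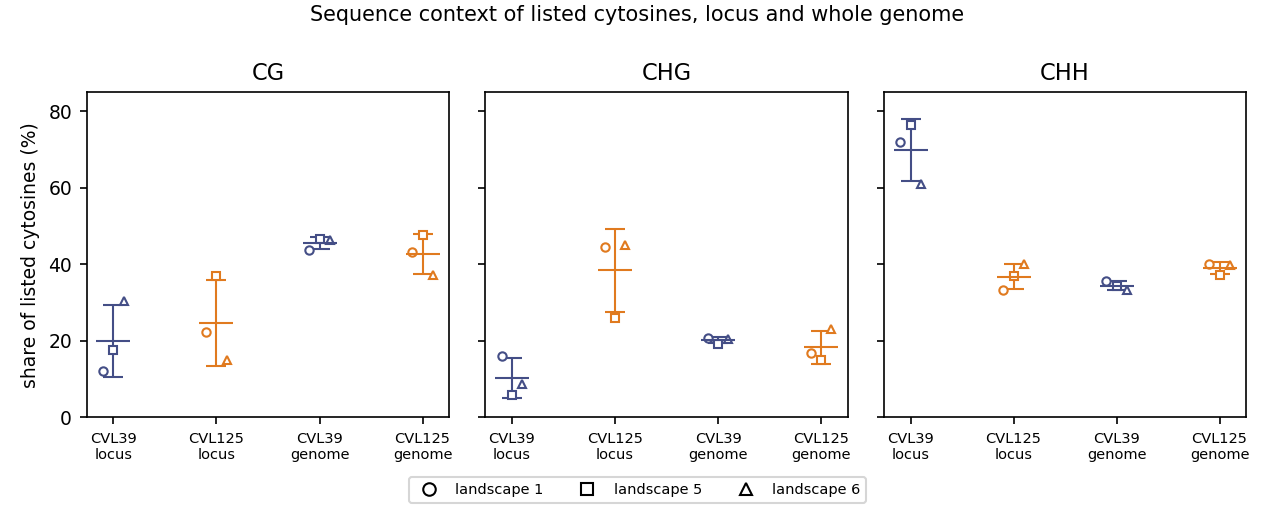
Share of listed cytosines in CG, CHG and CHH context (%), at the locus and over the nuclear genome, for CVL39 and CVL125. Symbols are landscapes, and marks with bars are means ± SD over 3 lists; at the locus CHG ranges from 5.88% to 16.0% in CVL39 and from 25.9% to 45% in CVL125, whereas genome-wide means of the lines are 20.1% and 18.2%.

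Recurrence is what the interval was chosen for. In CVL125, 7 positions were in all 3 lists, 9 in 2 and 35 in 1. The 7 comprised 1 CG, 5 CHG and 1 CHH cytosine, 3 of them in AT1G27550 and 4 in AT1G27560. Of 37899 annotated nuclear genes, 450 (1.19%) had at least 1 position in all 3 CVL125 lists, and AT1G27560 with 4 and AT1G27550 with 3 had ranks 2 and 5 when ties were ordered by locus name. AT1G27560 was tied at 4 such positions with AT3G30837 and AT5G29022. AT1G27550 was tied with 6 other genes at 3 such positions, which take ranks 5 to 11, and AT1G43740 with rank 6 was the next of them. Another 41 genes had 2. In CVL39, where 616 genes (1.63%) had such a position, the interval had 1 position in all 3 lists, between the genes, 9 in 2 and 44 in 1.

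The 3 recurrent cytosines of AT1G27550 lie within 5 bases of the minus strand of the second exon, so single reads can span them. The CHG cytosine at 9568910 had p-values of 0.00442, 0.00581 and 0.00272 in CVL125 landscapes 1, 5 and 6. The CHG cytosine at 9568907 had 0.0307, 0.0213 and 0.00633. The CG cytosine at 9568906, the inner cytosine of the same CCG, had 0.0328, 0.00184 and 0.00323. All 3 were absent from every CVL39 list.

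These cytosines belong to a group of positions no more than 50 bp apart, the 69 bp from 9568858 to 9568926 printed above. CVL125 had 9 listed positions there, 5 in CG and 4 in CHG, and all were on the minus strand although the stretch has 25 plus-strand and 15 minus-strand cytosines. They were spread over the lists as 3, 8 and 5. Over the whole second exon, 10 positions were listed in CVL125, again all minus, and they took in 22.7% of its CG and 36.4% of its CHG cytosines. CVL39 listed 2 positions of this exon, both CG and both minus. Taken over the 3 lists, CVL125 positions in the other segments of the locus fell on both strands. In landscape 5 alone, however, all 12 DMCs of AT1G27550 were minus, those of the intron and first exon included.

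In AT1G27560 the recurrent positions were spread out. The plus-strand CHG cytosine at 9571226 had p-values of 0.0193, 0.0334 and 0.00686 in CVL125 landscapes 1, 5 and 6 and was not listed in CVL39. The minus-strand CHG cytosine at 9571389 had 0.00475, 0.00322 and 0.0280 and was likewise not in CVL39. The others had a counterpart in the second line. The plus-strand CHG cytosine at 9571358 had 0.00654, 0.0229 and 0.0147 in CVL125 and 0.00699 in CVL39 landscape 1. The plus-strand CHH cytosine at 9571966 had 0.0132, 0.0173 and 0.00308 in CVL125 and 0.0137 in CVL39 landscape 5. The 21 CVL125 p-values of the recurrent positions ran from 0.00184 to 0.0334.

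The smallest p-values of the locus were in CVL39 and in CHH. The plus-strand cytosine at 9570223, between the genes, had 4.43e-09 in landscape 1, 0.00186 in landscape 5 and 0.000644 in landscape 6. The first of these was the smallest of all 11266 nuclear p-values in its list. It opens a group of 6 CVL39 positions within 40 bp (9570223 to 9570262), where CVL125 had none. Its neighbour at 9570245 had 0.000107 in landscape 1 and 0.000694 in landscape 6. Within AT1G27560, the minus-strand CHH cytosine at 9571373 had 1.18e-07 in CVL39 landscape 6, rank 5 of 12750 in its list, and 0.0331 in landscape 5. In CVL125 the smallest value at the locus was 0.000142, for a CG cytosine at 9568890 in landscape 5.

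The largest group was shared in place but mostly not in position. CVL39 had 18 positions from 9571191 to 9571471 in AT1G27560, 12 of them CHH, and CVL125 had 13 in the same 281 bp. Over the locus, CVL39 had 54 distinct positions and CVL125 51, and 7 were common to both (13.0% and 13.7%). Of these 7, 4 were CHH, 2 were CG and 1 was CHG. How large a share of positions the lines have in common genome-wide is not given here. Whether the overlap at the locus is low or high for such lists was therefore not tested. By strand, CVL39 positions were 34 plus and 20 minus and those of CVL125 20 plus and 31 minus. Both cytosines of a symmetric site were listed at 1 of 10 CG sites in CVL39 and 1 of 13 in CVL125, and at 0 of 4 and 0 of 9 CHG sites. The genome-wide share of sites listed on both strands is not given here either.

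**Figure D4:**
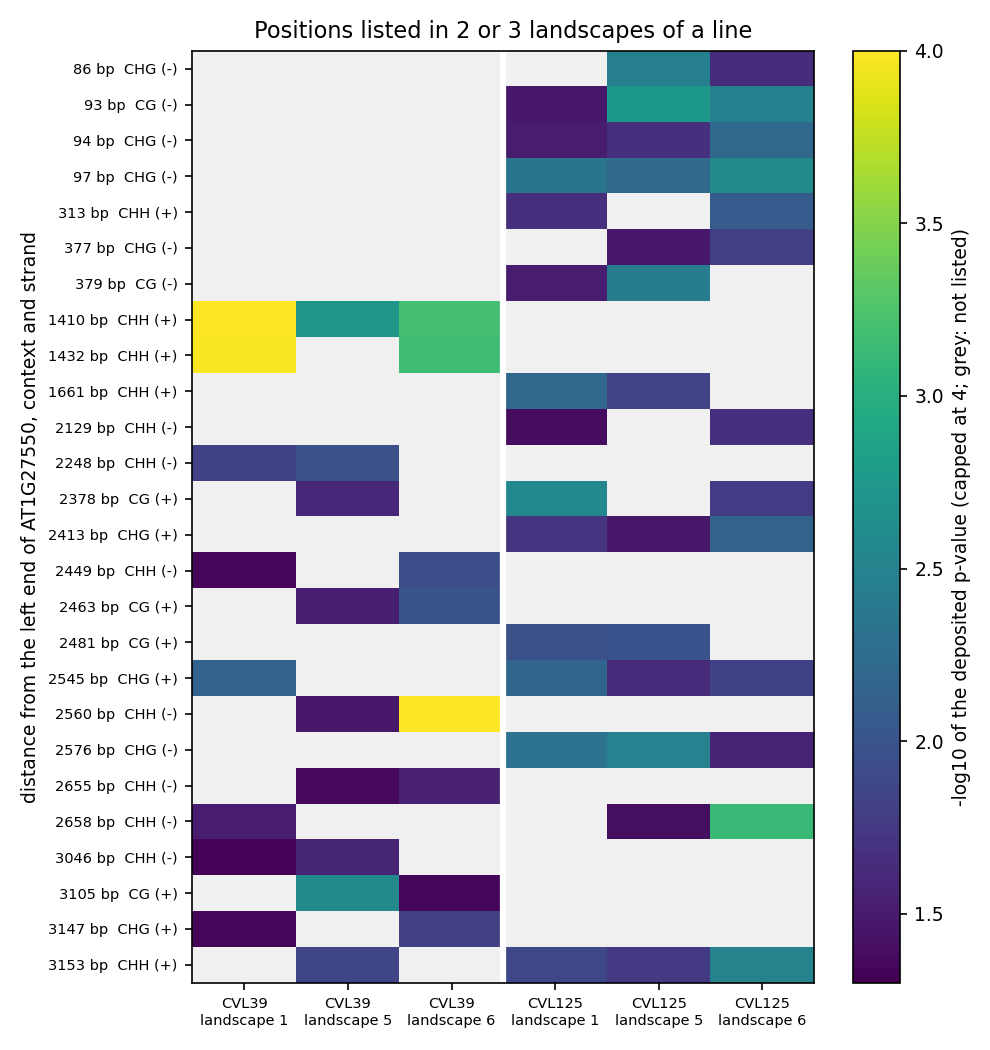
Positions of the locus listed in 2 or 3 landscapes of a line (rows, with distance in bp from the left end of AT1G27550, context and strand) in each of the 6 lists (columns). Colour is −log10 of the deposited p-value, capped at 4, and grey means not listed; the 3 neighbouring rows at 93, 94 and 97 bp are filled in every CVL125 column and in no CVL39 column.

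Closely related copies may limit how these reads can be placed. A search of the genome with the locus sequence found AT1G27560 and the bases beside it in AT1G27540 (1444 aligned bp, 90.9% identity) and in AT1G27580 (1172 bp, 91.5%), an F-box relative at 9589807 to 9591075. AT1G27550 matched AT1G27580 over 466 bp at 81.1% and AT1G27560 itself over 459 bp at 81.0%. Since the aligner allowed 4 mismatches, every 50-base window of the locus was compared with these copies (the read length is not given in the sources used here). In unconverted sequence, windows with a copy at up to 4 mismatches covered 88.1% of AT1G27560 and 21.0% of AT1G27550. With every C read as T, as after conversion of unmethylated DNA, they covered 97.6% and 76.1%. With every G read as A they covered 95.2% and 41.5%. Of the 24 listed positions in AT1G27550 they took in 2 unconverted, 18 with C read as T and 12 with G read as A. Over the locus these were 55, 79 and 70 of the 98 positions. The 7 recurrent CVL125 positions were all covered in both converted forms, and 3 of them in unconverted sequence. AT1G27540 had 1 DMC over the 6 lists, and AT1G27580 had 6, 3 and 9 in CVL39 and 2, 4 and 3 in CVL125. How the reads were placed among these loci is not known, so assignment of single positions to them is uncertain. The part of the copies in the listing was not tested. The origin of the locus, Ler or Cvi, was not analysed here.

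For F-box genes as a class, shares of listed genes are given beside those of all genes, without a test. Of 947 genes whose annotation names an F-box, 10.7%, 11.3% and 12.6% had a DMC in the CVL39 lists, against 13.6%, 15.0% and 15.3% of all nuclear genes. In CVL125 they were 11.1%, 11.6% and 6.44%, against 14.4%, 16.3% and 9.20%. A position in all 3 lists occurred in 12 F-box genes of CVL39 (1.27%) and 8 of CVL125 (0.845%), beside 1.63% and 1.19% of all genes. The share of all genes includes 4843 pseudogenes, of which 29.1% to 30.1% had a DMC in the CVL39 lists and 23.7% to 28.0% in those of CVL125. Among 102 genes whose annotation names DUF295, 3 had such a position in CVL125, namely AT1G27550, AT1G27560 and AT1G64840, and none had one in CVL39. AT1G27550 and AT1G27560 were chosen for such positions. The CVL125 counts of classes that hold them therefore include that choice, and their contrast with CVL39 is a description. AT1G27550 is among the 102 because its best protein match is a DUF295 protein. Of 926 transcribed pseudogenes, the class of AT1G27560, 10.7%, 10.3% and 9.5% had a DMC in the CVL39 lists. In CVL125 these shares were 8.75%, 9.72% and 7.24%, and in both lines each was below that of all genes in the same list. A position in all 3 lists occurred in 3 transcribed pseudogenes in CVL39 and 5 in CVL125. Over 3 lists AT1G27560 was matched or exceeded in DMCs by 20 of all nuclear genes in CVL39 and 30 in CVL125, itself included.

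Genes were compared with the summed counts of AT1G27550 and AT1G27560, without the stretch between them. The most alike were found by Bray-Curtis distance over 18 counts (6 lists, 3 contexts), where 0 means equal counts. The nearest was AT2G24710 (GLR2.3), annotated as a glutamate receptor, at a distance of 0.215, with 25, 16 and 15 DMCs in CVL39 and 20, 19 and 10 in CVL125. The other 4 were the pseudogenes AT3G32240 (0.216), AT5G26345 (0.244), AT1G51175 (0.261) and AT4G16870 (0.275). Of these 5, AT3G32240 had 3 positions in all lists of CVL39 and 2 in all lists of CVL125, and AT1G51175 had none in either line.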

How the data were processed

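The authors converted pooled DNA with bisulfite, generated SOLiD reads from it and used SOCS, with at most 4 mismatches, for alignment against the parental genomes (TAIR10 with known Ler and Cvi base differences). The deposited lists give chromosome, strand, position and an unadjusted p-value, at most 0.05, for each cytosine that differed between a selected and the ancestral pool. The test, coverage minimum and software behind these p-values are not given in the sources used here for these lists, and no count, level or direction is listed.

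Positions, deposited as counted from 0, were placed on the RefSeq copy of TAIR10 and given a context. Positions off a cytosine and in organelles were left out. DMCs were counted per list, line, context, strand and segment (Python 3.11.15, numpy 2.4.6, pandas 2.3.3). The tests were exact (scipy 1.17.1), the density test on log2 of the density with 0.5 added to the count. Steps were tested on simulated data. Copies were sought with blastn 2.17.0 (word size 11, E-value 1e-05), and the 50-base windows were added after values were seen. Named were the 2 loci, all genes in the flanks and the 5 nearest genes in Bray-Curtis distance. The loci and gene lists were chosen with earlier results of these data known. The replicate is the selected population, and pools of a line share an ancestral pool, so p-values cover only the spread between these lists. Landscape numbers are shared between the lines.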

Additional observations from a re-analysis of the deposited data

How the results depend on the processing

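At p-values of at most 0.005 the locus held 4.67 DMCs per list in CVL125 and 4.00 in CVL39, against 24.7 and 21.7, and no position remained in all 3 CVL125 lists. Within the gene bodies alone CVL39 had 15.3 per list. Leaving out each landscape in turn gave 23.5 to 27.0 DMCs per list in CVL125 and 20.0 to 24.0 in CVL39. Allowing recurrent positions to lie within 10 or 50 bp of each other raised the 7 to 12 and 32, and with any 1 landscape left out, a choice made after seeing the data, 10 positions were in both remaining lists. The log2 density of CVL39 over the genome was 5.79 to 6.14 without 1 landscape and 3.22 against the flanks. The flank difference between the lines was 0.00 at p-values of at most 0.005 and with flanks of 2 kb, 5.00 with flanks of 10 kb (p = 0.1, exact permutation test), and between −1.5 (without landscape 6) and 4.00 without 1 landscape. With the landscape number as replicate block it stayed at 1.33 (p = 0.75, exact). Counting symmetric sites once and leaving out CT runs changed no direction, and neither flanks nor locus held a position in a CT run or off a cytosine. The depth per cytosine is unknown, and its part in the counts was not tested.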
